A study of Homo sapiens with 6 samples.

Results

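The metallothionein genes are described here in the established human cell line YAPC, derived from a pancreatic carcinoma, which stands for the classical subtype in the study. The 8 genes were chosen by name (MT2A, MT1E, MT1M, MT1A, MT1F, MT1G, MT1H and MT1X), and each matched 1 of the 25442 genes on the primary chromosomes of the deposited table. FPKM, the number of fragments scaled to transcript length and library size, had to average 1 or more for a gene to be tested, which 7 of the 8 reached and MT1H did not.

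The RNA-seq libraries came from 3 samples of YAPC-iGLI2 cells and 3 samples of YAPC-iEV cells. Both lines carry rtta, and both were kept in Dox for 6 days in full growth medium, so that the groups share the Dox exposure. In iGLI2 cells the retroviral vector pRetroX-Tight-Puro held a human GLI2 cDNA under Dox control, and in iEV cells the same vector was empty. Whether either line was a pool or 1 clone, and whether replicates were separate cultures, is not given in the sources used here, so that the p-values measure only the spread between these samples. The libraries carry codes that end in 1A, 1B and 2A for iEV replicates 1, 2 and 3 and in 1A, 1B and 2B for iGLI2 replicates 1, 2 and 3. What the codes mark is not given either, so that replicates 1 and 2 of a group may share a source.

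Metallothioneins are small cysteine-rich proteins that bind zinc, copper and cadmium in the cytoplasm and buffer the supply of free metal. Their genes lie side by side on chromosome 16 and arose by duplication. When zinc rises, the transcription factor MTF1 binds metal response elements (MREs) in their promoters and increases transcription, and glucocorticoids and oxidative stress are further known inducers, MT2A being the classic example in human cells.

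The 3 promoters that RefSeq (GRCh38.p14) provided for these genes are shown because they hold the elements by which metal acts on the family. Each is the run of 250 bases before the start of the gene, on the plus strand. The other members are MT1A, MT1E, MT1F, MT1G and MT1M. Capitals mark every match to the MRE core, searched as TGCACNC and TGCGCNC on both strands, where matches on the opposite strand appear as their reverse complement and overlapping matches were each counted. The MT2A stretch is chr16:56608334-56608583, the MT1X stretch is chr16:56682220-56682469 and the MT1H stretch is chr16:56669564-56669813.
MT2A promoter: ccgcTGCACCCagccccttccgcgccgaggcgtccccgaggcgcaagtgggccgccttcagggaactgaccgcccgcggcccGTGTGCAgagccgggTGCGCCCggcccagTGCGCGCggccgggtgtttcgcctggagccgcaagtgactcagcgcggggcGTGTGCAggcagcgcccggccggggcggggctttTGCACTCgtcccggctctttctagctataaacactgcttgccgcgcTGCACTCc
MT1X promoter: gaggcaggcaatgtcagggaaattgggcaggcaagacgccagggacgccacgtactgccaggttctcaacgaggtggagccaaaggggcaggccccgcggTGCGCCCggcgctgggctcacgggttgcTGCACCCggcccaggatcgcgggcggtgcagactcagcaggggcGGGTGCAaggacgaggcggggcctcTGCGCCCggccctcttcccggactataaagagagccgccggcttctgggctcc
MT1H promoter: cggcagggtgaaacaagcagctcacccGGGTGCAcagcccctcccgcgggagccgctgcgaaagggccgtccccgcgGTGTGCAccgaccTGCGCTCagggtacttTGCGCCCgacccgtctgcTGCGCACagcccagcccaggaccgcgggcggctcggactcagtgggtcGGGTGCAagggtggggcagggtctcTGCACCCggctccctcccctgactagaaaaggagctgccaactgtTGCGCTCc
The core occurred 7 times in the MT2A promoter, 4 times in the MT1X promoter and 8 times in the MT1H promoter. Of 35116 RefSeq promoters of the same length, 24.8% held at least 1 core, 0.370% at least as many as MT1X, 0.0313% at least as many as MT2A and 0.0171% at least as many as MT1H. The GLI consensus GACCACCCA, searched on both strands, matched none of the 3 stretches and was present in 0.199% of all promoters. These are matches of letters and not sites of binding.

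The coding sequences of 3 members are shown because their similarity bears on how fragments are assigned among the genes. They were read from the canonical transcripts of GENCODE release 44 lifted to GRCh37, from the start codon to the stop codon, and capitals mark bases that differ from MT2A.
MT2A coding sequence: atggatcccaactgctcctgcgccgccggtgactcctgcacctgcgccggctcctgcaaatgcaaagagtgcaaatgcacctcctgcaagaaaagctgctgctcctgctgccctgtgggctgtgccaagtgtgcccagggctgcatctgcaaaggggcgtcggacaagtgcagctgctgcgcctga
MT1F coding sequence: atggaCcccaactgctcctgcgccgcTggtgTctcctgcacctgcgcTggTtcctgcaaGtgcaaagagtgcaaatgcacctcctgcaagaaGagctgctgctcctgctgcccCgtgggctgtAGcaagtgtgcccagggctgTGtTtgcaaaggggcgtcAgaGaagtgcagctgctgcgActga
MT1X coding sequence: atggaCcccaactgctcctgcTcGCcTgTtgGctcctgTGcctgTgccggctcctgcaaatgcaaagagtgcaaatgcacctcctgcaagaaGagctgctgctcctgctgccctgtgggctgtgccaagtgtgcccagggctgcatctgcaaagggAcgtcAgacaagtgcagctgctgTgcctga
All 3 are 186 bases long. MT1X differs from MT2A at 14 bases (92.5% identity), MT1F differs from MT2A at 16 bases, and MT1F and MT1X differ from each other at 21 bases. Of all windows of 50 bases in the canonical transcript, 5.76% in MT1A, 6.12% in MT1F, 10.2% in MT2A, 10.3% in MT1E, 14.6% in MT1M, 18.0% in MT1X, 19.9% in MT1G and 20.4% in MT1H also occurred in a metallothionein gene or pseudogene elsewhere. MT1G shares 47 of its 361 windows with MT1X, the most of any pair of members, and 16 with MT2A, the member with the highest level. How the authors treated reads that match several places is not given in the sources used here, and the part of shared reads in the values below was not tested.

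The table gives hg19 loci, and all 8 members lie on chromosome 16. MT2A (56642478 to 56643409), MT1E (56659585 to 56661024), MT1M (56666534 to 56667898), MT1A (56672578 to 56673999), MT1F (56691855 to 56693215), MT1H (56703726 to 56705041) and MT1X (56716382 to 56718108) are on the plus strand of the annotation, and MT1G (56700647 to 56701977) is on the minus strand. The annotation makes all 8 protein-coding. The canonical transcript has 2 exons and 746 bases in MT1E, and 3 exons and between 396 and 425 bases in the other 7. This annotation starts the MT1E gene at 56659387, upstream of the deposited locus. It places MT1F at 56691643 to 56694610, beyond the deposited locus at both ends, and the starts of MT2A, MT1M and MT1G differ too. The transcript models behind the values of these genes, and their lengths and shared windows, may therefore differ from those given here. On transcripts this short FPKM rests on few positions. A longer noncoding RNA, ENSG00000259827, starts at the same base as MT1X and holds 117 of its 355 windows, so that the MT1X value may include its fragments.

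Summed over all genes, FPKM came to 981341 to 1082680 in iEV and to 803145 to 889555 in iGLI2 libraries, and the number of fragments behind each value is unknown. A single small RNA gene, MIR4461, held 42.6% to 45.4% of that sum in iEV and 35.7% to 37.7% in iGLI2 libraries. GLI2 itself was between 0.344 and 0.466 FPKM in iEV cells and was 94.5, 207 and 195 FPKM with the insert (values of a group are given in the order of replicates 1, 2 and 3 throughout), so that each library had the GLI2 level of its label and iGLI2 replicate 1 had the lowest of its group. Of the 5 epithelial markers set for the check of the cell type, EPCAM, CDH1 and KRT19 were between 51.0 and 682 FPKM in all libraries, while KRT8 and KRT18 were listed at 0 in all of them. A listed 0 therefore does not show absence in this table. Among the markers of other cell types DCN was listed at 0 and PTPRC at 0.0343 FPKM or less. Higher values were those of COL1A1, which was between 1.29 and 1.54 FPKM in iEV and between 2.28 and 2.98 FPKM in iGLI2 cells, CD68, between 2.79 and 3.27 FPKM, and PRSS1, between 2.59 and 13.3 FPKM. The 5 fibroblast markers summed to 1.4 to 1.6 FPKM in iEV and 2.3 to 3.0 FPKM in iGLI2 libraries, and the 3 acinar markers to 5.2 to 13.3 FPKM and 2.7 to 4.4 FPKM. Their part in the results was not tested.

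The comparison of iGLI2 with iEV cells asks which genes differ between classical cells with and without expressed GLI2. All 6 libraries had Dox, so that a standing difference between the lines cannot be told apart from an effect of GLI2. Among the metallothioneins the answer was divided. MT1X, MT1F and MT1G were higher in iGLI2 cells, by 2.66-fold, 2.1-fold and 2.05-fold in mean FPKM. MT1A and MT1M were lower, by 3.18-fold and 2.49-fold. MT2A and MT1E, the most abundant members, did not pass the threshold. The test was limma's moderated statistic, two-sided, on the log2 fold change of FPKM + 1 (log2FC, iGLI2 over iEV, which understates the change of low genes), with Benjamini-Hochberg adjustment over 12493 genes and a threshold of 0.05.

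Thus 5 of the 7 members tested passed, 3 higher and 2 lower. In the same fit 21.9% of all 12493 genes passed, 10.1% as higher and 11.8% as lower. Of the 7, MT1A, MT1M and MT1X passed with a log2FC of at least 1 in size, as did 4.22% of all genes tested. The median log2FC of the 7 members was 0.17, and it was -0.015 over all genes tested. The same 5 members had groups that did not overlap, 3 with every iGLI2 library above and 2 with every one below. Over all genes tested 42.0% did not overlap, 19.2% above and 22.8% below. In bulk RNA, a change in the level per cell and a change in the share of cells that express a gene cannot be told apart.

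**Figure D1:**
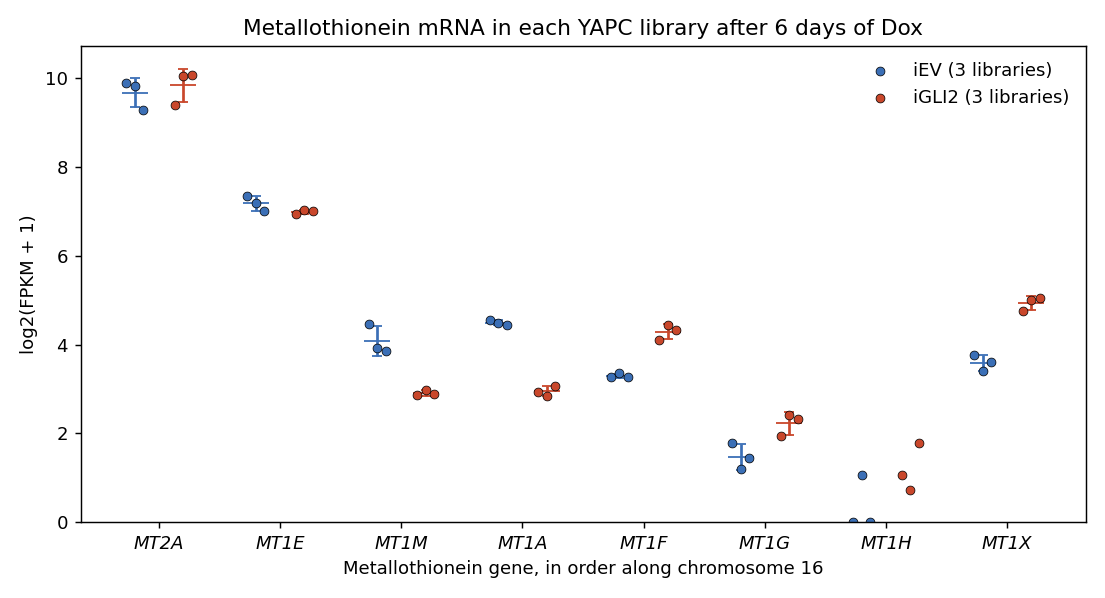
Metallothionein mRNA as log2(FPKM + 1) on the vertical axis for the 8 genes in their order along chromosome 16, with a point per library, a horizontal line at the mean and bars of 1 SD (n = 3 for each of iEV and iGLI2) except for MT1H, which has points only. The groups are apart for MT1M, MT1A, MT1F, MT1G and MT1X and overlap for MT2A, MT1E and MT1H.

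MT1A encodes one of the metallothionein I isoforms. Its value was 22.5, 21.3 and 20.7 FPKM in the iEV libraries, and 6.68, 6.20 and 7.39 FPKM in the iGLI2 libraries. The 3 iEV libraries lay close together and each was far above every iGLI2 library. Mean FPKM went from 21.5 ± 0.881 to 6.76 ± 0.601 (SD, n = 3 each). For MT1A the log2FC was -1.54 (SE 0.076, limma adjusted p = 0.000221), the smallest adjusted p of the family.

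MT1M encodes a further metallothionein I isoform, the member next to MT1A along the chromosome. In the iEV libraries it had 21.0, 14.2 and 13.4 FPKM, and in the iGLI2 libraries it had 6.26, 6.93 and 6.35 FPKM. The iEV libraries were spread, with replicate 1 the highest, but the lowest of them was still above the highest iGLI2 library. The log2FC was -1.17 (SE 0.17, limma adjusted p = 0.00591). Without iEV replicate 1 it was -0.98 and still passed.

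MT1X, a metal-inducible metallothionein I isoform, showed the largest increase among the members tested. Its values were 12.6, 9.58 and 11.3 FPKM in the iEV libraries, and 26.2, 30.9 and 31.9 FPKM in the iGLI2 libraries. Every iGLI2 library was above every iEV library, the lowest iGLI2 value being that of replicate 1. Mean FPKM went from 11.1 ± 1.51 to 29.7 ± 3.09 (SD, n = 3 each), with a log2FC of 1.34 (SE 0.12, limma adjusted p = 0.00131).

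MT1F, also a metallothionein I isoform, had 8.72, 9.20 and 8.66 FPKM in the iEV libraries. In the iGLI2 libraries it had 16.2, 20.6 and 19.05 FPKM. The iEV libraries were nearly alike and all lay below the iGLI2 libraries, of which replicate 1 was again the lowest. On average MT1F had a log2FC of 0.99 (SE 0.094, limma adjusted p = 0.00155).

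MT1G, the metallothionein I gene on the opposite strand, was listed at a low level. It shares windows with MT1X and MT2A, both listed at much higher levels, and the part of their fragments in its value was not tested. It had 2.44, 1.29 and 1.71 FPKM in the iEV libraries, and 2.82, 4.33 and 3.99 FPKM in the iGLI2 libraries. The groups did not overlap, but iEV replicate 1 and iGLI2 replicate 1 lay close to each other. The log2FC of 0.75 (SE 0.19) was just past the threshold (limma adjusted p = 0.0415). The call was lost when any of iEV replicates 2 and 3 or iGLI2 replicates 2 and 3 was left out, with limma adjusted p between 0.120 and 0.129, and without the filter on low values (limma adjusted p = 0.0597).

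MT1H, also a metallothionein I gene, had a mean of 0.884 FPKM and was not tested. It was listed at 0 in iEV replicates 1 and 3 and at 1.08 FPKM in iEV replicate 2. In the iGLI2 libraries it had 1.10, 0.652 and 2.47 FPKM, so that the groups overlap. Its promoter holds 8 MRE cores and that of MT2A, the member with the highest level, holds 7. Whether the number of cores bears on the level was not tested.

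MT2A encodes metallothionein II, in most human tissues the predominant isoform. Its values were 944, 907 and 626 FPKM in the iEV libraries, and 673, 1055 and 1068 FPKM in the iGLI2 libraries. Each group held 1 low library, iEV replicate 3 and iGLI2 replicate 1, and the groups overlap. The log2FC was 0.17 with a 95% confidence interval of -0.42 to 0.76 (limma adjusted p = 0.663), so that neither a moderate increase nor a moderate decrease could be detected with this spread. Without iEV replicate 3 it was -0.02, and without iGLI2 replicate 1 it was 0.39, in neither case past the threshold.

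MT1E, the metallothionein I isoform with the highest level, had 161, 145 and 127 FPKM in the iEV libraries. In the iGLI2 libraries it had 122, 129.7 and 128 FPKM. The iGLI2 libraries fell within a narrow range that overlaps the lowest iEV library. The log2FC was -0.19 with a 95% confidence interval of -0.42 to 0.05 (limma adjusted p = 0.226), an interval that does not reach the changes of MT1A or MT1X in either direction.

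FPKM is scaled to transcript length, but short transcripts, shared windows and the unknown annotation make its comparison across these genes only rough. Within that limit the order of the listed FPKM differed between the lines. Mean levels in iEV cells ran from MT2A (826 FPKM) and MT1E (145 FPKM) through MT1A (21.5 FPKM), MT1M (16.2 FPKM), MT1X (11.1 FPKM) and MT1F (8.86 FPKM) to MT1G (1.81 FPKM), with MT1H last. Of these neighbours, MT1A and MT1M overlapped in their replicates. In iGLI2 cells MT2A (932 FPKM) and MT1E (126 FPKM) were followed by MT1X (29.7 FPKM), MT1F (18.6 FPKM), MT1A (6.76 FPKM), MT1M (6.51 FPKM), MT1G (3.72 FPKM) and MT1H, with overlap again only between MT1A and MT1M.

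The exchange among the minor isoforms was seen in ratios within each library, where scaling between libraries cancels. MT1A had 1.78, 2.22 and 1.84 times the FPKM of MT1X in the iEV libraries. The ratio was 0.256, 0.200 and 0.231 in the iGLI2 libraries. MT1M had between 1.54 and 2.40 times the FPKM of MT1F in iEV cells and between 0.333 and 0.386 times in iGLI2 cells. Both pairs thus changed places in listed FPKM in every library of iGLI2 cells. These pairs were chosen after the values were seen, and the ratios are given without a test.

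**Figure D2:**
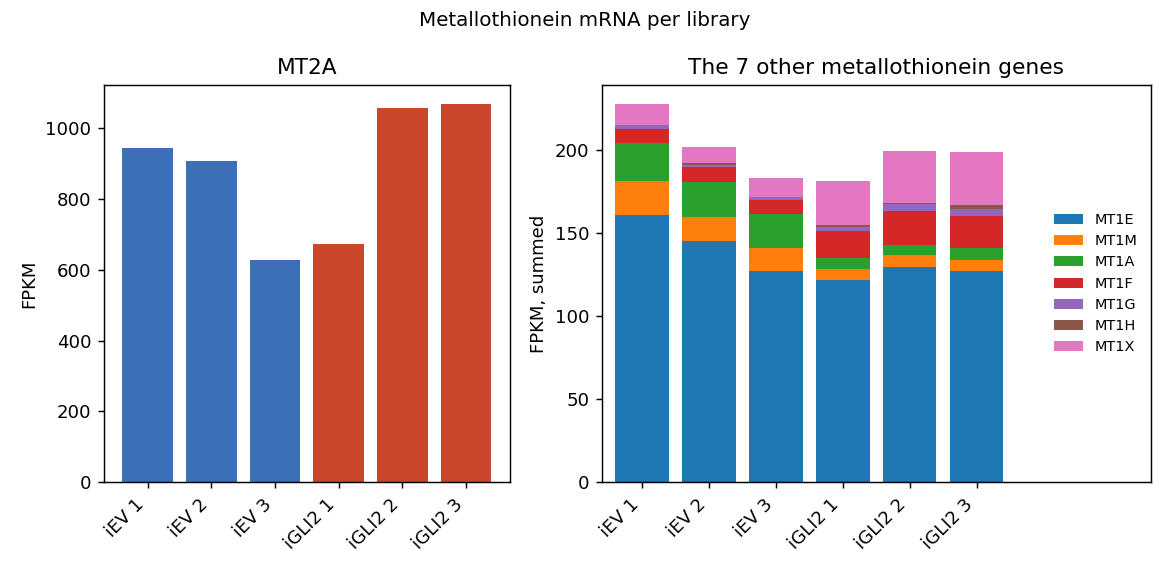
FPKM of MT2A per library (left) and FPKM of the 7 other metallothionein genes stacked per library (right), for iEV and iGLI2 replicates 1 to 3. The right-hand stacks reach between 181 and 228 FPKM in all 6 libraries while MT1M and MT1A are thinner and MT1F and MT1X thicker in iGLI2 cells. MT1E alone is between 122 and 161 FPKM of each stack, so that the heights rest mainly on it. The pseudogene MT1L is not in the stacks.

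Summed over the 8 members, metallothionein mRNA came to 1172, 1109 and 809 FPKM in the iEV libraries and to 854, 1254 and 1266 FPKM in the iGLI2 libraries. MT2A made up between 77.4% and 84.3% of the sum in each library, so that the sum followed its low libraries. The 7 other members together had 204 ± 22.4 FPKM in the control and 193 ± 10.3 FPKM with GLI2 (SD, n = 3 each). Of these means MT1E made up 145 and 126 FPKM. They leave out MT1L, a pseudogene of the cluster described below, which averaged 89.9 FPKM in iEV and 52.4 FPKM in iGLI2 libraries. Within the sum, MT1A went from 2.13% ± 0.371 to 0.620% ± 0.148 and MT1X from 1.11% ± 0.265 to 2.68% ± 0.329 (SD, n = 3 each).

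The genes that passed lay in order of their direction along the cluster. Among the members tested, MT1M and MT1A, which lie upstream, were lower, and MT1F, MT1G and MT1X, which lie downstream of both, were higher. MT2A and MT1E are at the upstream end. This order was noticed after the values were seen and is given as a description of 7 neighbouring genes.

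**Figure D3:**
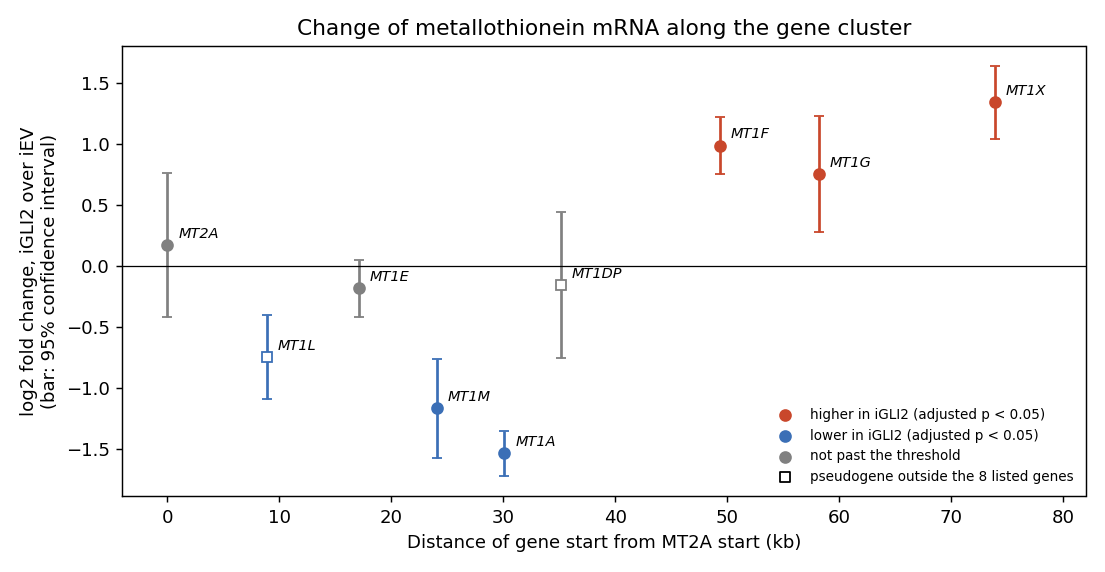
Log2 fold change of iGLI2 over iEV with its 95% confidence interval on the vertical axis, against the distance of each gene's start from that of MT2A in kb. Circles are members and squares are pseudogenes of the cluster, in red where higher, in blue where lower and in grey where the threshold was not passed. The lower genes MT1L, MT1M and MT1A lie to the left of the higher genes MT1F, MT1G and MT1X.

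Of 9 further metallothionein genes and pseudogenes looked for, 8 were found in the table and 2 averaged 1 FPKM or more. MT1L, a transcribed pseudogene between MT2A and MT1E (56651373 to 56652730), had 101, 97.2 and 71.5 FPKM in the iEV libraries, and 54.2, 53.5 and 49.5 FPKM in the iGLI2 libraries. All iGLI2 libraries were lower, and the log2FC was -0.75 (SE 0.14, limma adjusted p = 0.0151). The call was lost without iEV replicate 2 (limma adjusted p = 0.0647) and without iGLI2 replicates 2 (0.0539) or 3 (0.0573). No window of 50 bases in the canonical transcript of any member occurred in MT1L. MT1DP, a pseudogene downstream of MT1A, averaged 1.37 ± 0.209 FPKM without and 1.20 ± 0.739 FPKM with GLI2 (SD, n = 3 each) and did not pass (limma adjusted p = 0.681). MT3, the isoform of the nervous system, was between 0.131 and 1.28 FPKM in the 6 libraries. MT4, known from stratified epithelia, and MT1HL1 were listed at 0 in all of them, and MT1B, MT1JP and MT1IP were at 0.658 FPKM or less.

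Genes beside the cluster were compared to see whether its flanks moved with it. Within 250 kb on either side, 6 of 9 genes were tested, of which 1 was higher and 1 was lower, against a background of 21.9% called. Their median log2FC was 0.05. BBS2, a subunit of the ciliary BBSome and the next gene upstream of the cluster that was tested, was higher, at a log2FC of 0.46 (SE 0.080, limma adjusted p = 0.0118). OGFOD1, a ribosomal prolyl hydroxylase further upstream, was lower, its log2FC being -0.23 (SE 0.057, limma adjusted p = 0.0392). On the downstream side NUP93, a nuclear pore protein, had a log2FC of -0.11 and HERPUD1, an endoplasmic reticulum stress protein, one of 0.03, and neither passed (limma adjusted p = 0.265 and 0.877). The log2FC of the 6 flanking genes ran from -0.23 to 0.46, and that of the members from -1.54 to 1.34. The call of BBS2 was lost without iGLI2 replicate 2 (limma adjusted p = 0.0514) or 3 (0.0502), and that of OGFOD1 when any library other than iGLI2 replicate 1 was left out (0.0916 to 0.152).

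MTF1, the metal-sensing activator of the family, did not pass the threshold. It had 5.35, 5.01 and 5.03 FPKM in the iEV libraries and 5.28, 5.22 and 5.12 FPKM in the iGLI2 libraries, so that the groups overlap. The log2FC was 0.02 with a 95% confidence interval of -0.12 to 0.16 (limma adjusted p = 0.854). MTF1 is controlled mainly through metal binding and entry into the nucleus, which mRNA does not show.

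Transporters that set the zinc level of the cell were examined as the rest of the pathway. Of the 10 genes of the SLC30 family, known mainly for moving zinc out of the cytoplasm, 5 were tested and 1 was higher. This was SLC30A5, a transporter of the secretory pathway, whose log2FC was 0.31 (SE 0.074, limma adjusted p = 0.0352). SLC30A1, the plasma membrane exporter and itself an MTF1 target, had 21.5, 18.3 and 16.8 FPKM in the iEV libraries and 14.8, 15.5 and 14.9 FPKM in the iGLI2 libraries. All iGLI2 libraries lay below the iEV libraries, but the log2FC of -0.30 did not pass (SE 0.095, limma adjusted p = 0.0740).

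Of the 14 SLC39 genes, which bring zinc into the cytoplasm, 11 were tested, with 1 higher and 1 lower. SLC39A6 rose by 0.37 on the log2 scale (SE 0.068, limma adjusted p = 0.0144), and SLC39A11 fell by 0.50 (SE 0.090, limma adjusted p = 0.0130). The 9 others had log2FC values between -0.32 and 0.19. With 1 of 5 exporters and 2 of 11 importers past the threshold, both shares were near the background of 21.9% (median log2FC 0.09 for the exporters and -0.18 for the importers), and each of these 3 calls was lost without iEV replicate 2 and without iEV replicate 3, and that of SLC30A5 also without iGLI2 replicate 2 or 3 (limma adjusted p = 0.0578 to 0.125 in these fits).

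Copper, the other physiological metal of metallothioneins, is handled by its own carriers. All 8 genes of the copper list were tested, 2 being higher and 1 lower, against a background of 21.9% called, with a median log2FC of 0.22. The copper pumps ATP7B and ATP7A had log2FC values of 0.48 (SE 0.12, limma adjusted p = 0.0359) and 0.27 (SE 0.059, limma adjusted p = 0.0252). SLC31A2, a protein of the copper transporter family, fell, with log2FC -0.29 (SE 0.066, limma adjusted p = 0.0281). The main importer SLC31A1 had one of -0.03 (limma adjusted p = 0.798). ATOX1, the chaperone that hands copper to the pumps, had 111, 123 and 104 FPKM in the iEV libraries, and 114, 209.6 and 209 FPKM in the iGLI2 libraries. iGLI2 replicate 1 lay among the iEV libraries, and the gene passed only without it, where its log2FC was 0.90 (limma adjusted p = 0.00224), and when the small RNA genes were left out of the scaling (limma adjusted p = 0.0491). The 3 calls of this list were each lost when any library other than iGLI2 replicate 1 was left out.

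**Figure D4:**
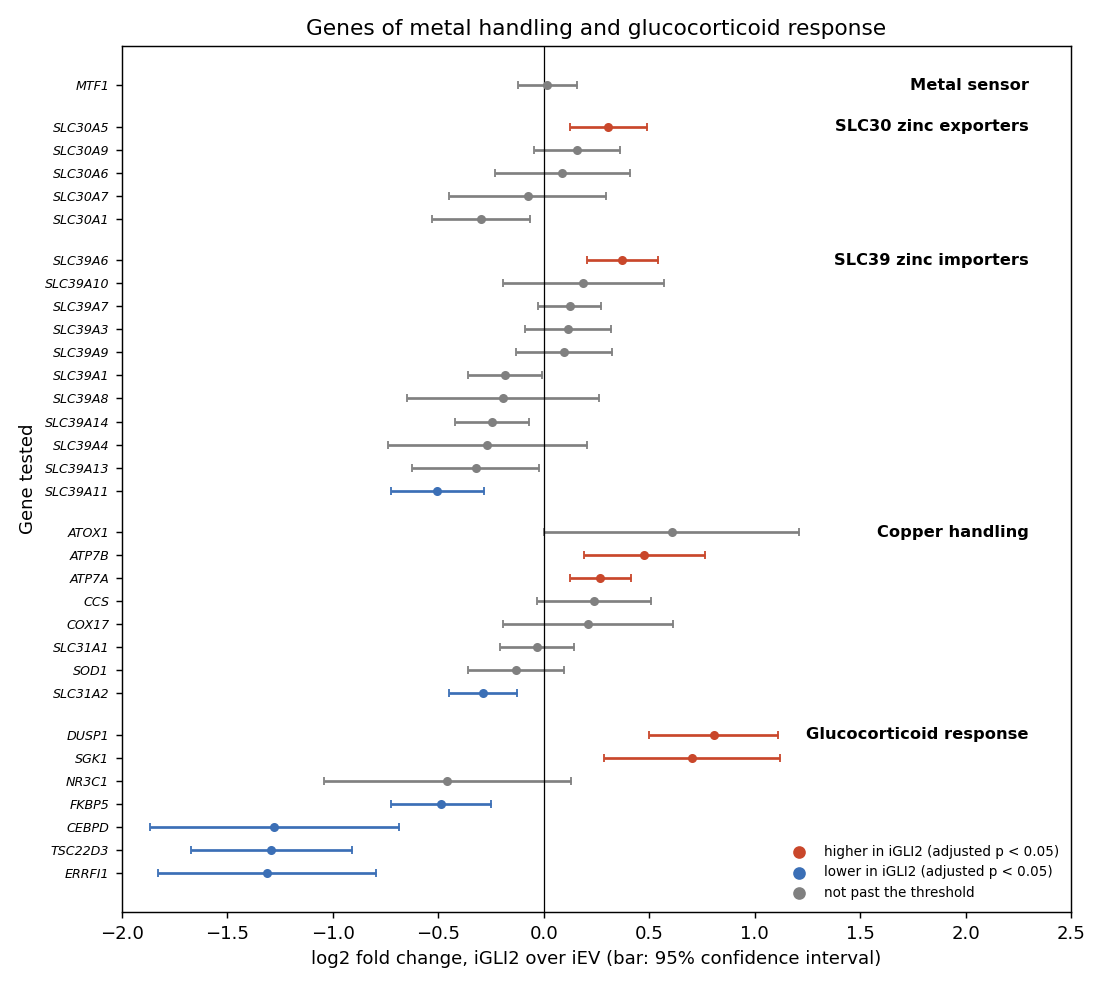
Log2 fold change of iGLI2 over iEV on the horizontal axis, with its 95% confidence interval, for MTF1 and for the tested genes of the zinc, copper and glucocorticoid lists. The points of the metal-handling genes lie between -0.50 and 0.61, while TSC22D3, CEBPD and ERRFI1 lie below -1.

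A list of 10 glucocorticoid response genes, which includes the receptor, was added because this hormone pathway induces metallothioneins. Of these, 7 were tested, with 4 lower and 2 higher, against a background of 21.9% called, and the median log2FC was -0.49. TSC22D3, which encodes the glucocorticoid-induced leucine zipper, fell from 26.2 ± 5.24 to 10.1 ± 1.36 FPKM (SD, n = 3 each), by 1.29 on the log2 scale (SE 0.16, limma adjusted p = 0.00340). ERRFI1, an inhibitor of EGFR, fell by 1.31 on the log2 scale (limma adjusted p = 0.00923), and CEBPD, a transcription factor of the acute response, fell by 1.28 (limma adjusted p = 0.0155). DUSP1, a MAP kinase phosphatase, rose by 0.81 on the log2 scale (limma adjusted p = 0.00829). The others that passed were FKBP5, a chaperone partner of the receptor, with a log2FC of -0.49 (limma adjusted p = 0.0186), and the kinase SGK1, with one of 0.70 (limma adjusted p = 0.0352). The receptor gene NR3C1 had a log2FC of -0.46 with a 95% confidence interval of -1.04 to 0.13 (limma adjusted p = 0.233). The call of CEBPD was lost without iEV replicates 2 or 3 (limma adjusted p = 0.0647 in both). That of FKBP5 was lost without iEV replicate 3 or iGLI2 replicates 2 or 3 (limma adjusted p = 0.0694 to 0.0744). That of SGK1 was lost without iEV replicate 2 or iGLI2 replicates 2 or 3 (0.0908 to 0.114), and with a pseudocount of 0.1 (0.0514). NR3C1 passed without iGLI2 replicate 1 (limma adjusted p = 0.0336).

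The profile of MT2A over the 6 libraries was set against those of 9030 genes other than metallothioneins that averaged 5 FPKM or more. Each profile was the log2(FPKM + 1) value minus the gene's own mean, and likeness was the root-mean-square difference over the 6 libraries. The closest were CIDECP (0.0982), PPDPF (0.117), HIST1H2BK (0.119), PCSK1N (0.123) and PRR7 (0.132), all in log2 units. Like MT2A, all 5 were lowest in iEV replicate 3 and iGLI2 replicate 1, and none passed the test. Both traits follow from choosing the genes by likeness to MT2A and are no separate result. Of the other members, MT1E had the smallest difference from MT2A at 0.282 and MT1A the largest at 0.895. A gene that hardly varies also scores a small difference, so that 0.282 does not by itself show that MT1E followed MT2A. This measure includes the difference between the groups, so that it partly restates which members changed. Among the iGLI2 libraries MT1E, MT1M, MT1F, MT1G and MT1X were lowest in replicate 1, as MT2A was. MT1A and MT1H were lowest in replicate 2.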

How the data were processed

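RNA-seq of 6 YAPC libraries, 3 iEV and 3 iGLI2, was analysed. The deposited values are FPKM, fragments scaled to transcript length and library size, which the authors made by trimming reads with Trimmomatic, aligning them to hg19 with tophat2 and running cuffdiff (version 2.1.1 in the submitters' processing notes). The header names no unit, and FPKM was inferred from the form of the values. The annotation and any scaling between libraries are not given in the sources used here. Locus starts were moved by 1 base to count from 1.

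Of 27024 entries, 1252 off the primary chromosomes and 330 repeated names with a lower mean were left out, and 0 value columns were left without a sample. The linear models of limma (version 3.58.1, R 4.3.3) were fitted to log2(FPKM + 1) of genes averaging 1 FPKM or more, with an intensity trend and condition as the only term. An exact permutation test of 3 against 3 libraries cannot go below p = 0.1. The test was tried on simulated data. Depth is unknown, so no counting interval is given. Sequences and plots were made with Python 3.11.15 and matplotlib 3.10.9. Named genes were the members, other metallothionein genes, MTF1, genes beside the cluster, at most 4 passing genes per list and the 5 profiles nearest the most abundant member. SLC30A1, SLC31A1, ATOX1, NR3C1, FKBP5 and SGK1 were named after their values were seen. Members and lists were chosen with earlier results of these data known. Alternatives were 3 scalings, a pseudocount of 0.1, no filter, a mean of at least 5 FPKM, a replicate block, no trend and each library left out.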

Additional observations from a re-analysis of the deposited data

How the results depend on the processing

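MT1A, MT1M, MT1F and MT1X kept their direction and passed under all 14 alternatives, with log2 fold changes from -1.66 to -1.47 for MT1A, -1.28 to -0.98 for MT1M, 0.91 to 1.08 for MT1F and 1.24 to 1.42 for MT1X. MT1G was higher in each of the 13 alternatives that tested it and passed in 7. MT2A (limma adjusted p from 0.196 to 0.964) and MT1E (0.110 to 0.474) passed in none. The number of genes called was 2742, of which 46.0% were higher. Leaving the small RNA genes out of the scaling gave 3002 with 59.4% higher. With each library left out it ranged from 1222 (without iEV replicate 2) to 3744 (without iGLI2 replicate 1), and the calls per list ranged from 0 to 1 higher for SLC30, 0 to 2 higher and 0 to 2 lower for SLC39, 0 to 4 higher and 0 to 1 lower for the copper list, 1 to 2 higher and 2 to 5 lower for the glucocorticoid list, and 0 to 1 higher and 0 to 1 lower beside the cluster. The copper list had 4 higher and 0 lower without the small RNA genes, 1 and 0 with no filter, and 0 and 0 at a mean of at least 5 FPKM. The glucocorticoid list had 1 higher with the pseudocount of 0.1 or the mean of at least 5 FPKM. OGFOD1 was lost under upper quartile scaling, without the small RNA genes and with no filter, which left 0 lower genes beside the cluster. The cause of these changes was not tested.

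Replicate numbers are shared between the groups. Deviations of same-numbered libraries correlated at 0.204, 0.0919 and 0.0276, and those of other pairings at -0.193 to 0.117. iEV replicates 1 and 3 correlated best with the iGLI2 library of their own number, and iEV replicate 2 with iGLI2 replicate 3. These weak correlations do not settle whether the numbers mark pairs. The main fit took none, and the replicate block is the fit that does. With the replicate block 3928 genes passed, MT1G was lost (limma adjusted p = 0.0769), NR3C1 passed (0.0203) and SLC39 had 2 lower genes. The unknown depth limits MT1G and MT1H most.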
